A study of Mus musculus with 12 samples.

Results

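The replication-dependent histone cluster genes encode the core and linker histones that package newly copied DNA. They were taken as the protein-coding rows of the gene table whose GENCODE M21 symbol begins with Hist1h, Hist2h, Hist3h or Hist4h, which gave 67 of the 55487 genes. By class there were 5 genes for H1, 17 for H2A, 17 for H2B, 12 for H3, 13 for H4 and 3 testis variants. The choice used names and biotype and no measured value, and 3 pseudogene rows with such names were left out.

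Transcripts were measured by RNA sequencing in male germ cells isolated from Mvh-Venus transgenic mouse testis, with 3 libraries at each of 4 stages. These were 2 embryonic days, E13.5 and E16.5, then P0, the day of birth, and P3, which is 3 days later. Mvh-Venus marks germ cells with a fluorescent protein. The sample titles call every library WT. The genotype tag instead gives Morc1 (+/-) at E13.5 and P0 and Morc1 (-/-) at E16.5 and P3, Morc1 being a germ cell protein of transposon silencing. Titles and tags disagree, so stage and genotype cannot be told apart in a comparison of stages with different tags. Of the 6 comparisons between stages, only P0 against E13.5 and P3 against E16.5 keep the tag the same. Morc1 itself ranged from 1621 to 1830 normalized counts at E13.5, 28330 to 32920 at E16.5, 7280 to 7708 at P0 and 10580 to 11130 at P3. On this scale it was thus higher in the 2 stages whose tag reads (-/-). The sources used here do not say whether the mutant allele removes the counted exons, so this level does not settle the genotype. A normalized count is the number of reads of a gene divided by the size factor of its library. Size factors averaged 1.94 at P0 and 1.01 at P3, and the order of Morc1 in these 2 stages rests on them. The labels do not say whether the libraries of a stage came from separate animals, so p-values measure the spread between these libraries, which may be technical. Each library held 40946616 to 51533747 reads assigned to genes.

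The 8 germ cell markers summed to 325289 to 339869 normalized counts at E13.5, 250001 to 274103 at E16.5, 133941 to 142393 at P0 and 227364 to 245346 at P3. On this scale they were thus lowest at P0. That rank rests on the size factors, which averaged 1.94 at P0 and 1.01 at P3. It was not recomputed with every library scaled to the same total. Markers of other testis cells were present too. The 8 Sertoli markers summed to 1372 to 2150 at E13.5 and 11097 to 21170 at P0, and 6 mast cell markers to 0 at E13.5 and 1505 to 3208 at P0. Low at E13.5, higher in the middle stages and lower again by P3, as Hist3h2a and Hist4h4 were, 7 erythroid markers ranged over 68.4 to 443, 1791 to 2528, 1606 to 2563 and 295 to 546 in stage order. In the same order 5 peritubular myoid markers ranged over 171 to 224, 1253 to 1867, 3699 to 4160 and 797 to 916. Highest at E16.5, as Hist1h2bc was, 6 macrophage markers went from 38.1 to 101.3 at E13.5 to 987 to 1169 there, then 125 to 367 and 275 to 305. The 6 Leydig markers ranged from 623 to 7763 among the E16.5 libraries, with the highest sum in library 4. The 5 endothelial markers went the other way, with 4429 to 5192 at E13.5, then 730 to 891, 1118 to 1314 and 592 to 747 in stage order. None of the 8 marker lists had a gene at 0 in all 12 libraries. The part of these cells in the histone values was not tested. In such bulk samples fewer cells of a type and less RNA per cell cannot be told apart.

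Male germ cells divide at E13.5, stop dividing and rest through late fetal life, and divide again within days of birth. The replication-dependent histone genes are switched on in S phase, when new DNA needs histones. Their messenger RNAs usually carry no poly(A) tail and end just after a short stem-loop that SLBP, the stem-loop binding protein, recognises. Cells that no longer divide can make polyadenylated transcripts from some of these genes by ending downstream of the stem-loop. The library kits named in the labels, SMART-seq v4 and TruSeq mRNA, prime or select RNA by its poly(A) tail, so the values count mainly polyadenylated transcripts and do not give the total histone message.

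The stem-loop was searched in every GENCODE transcript of the 67 genes as 16 bases with a stem of 6 base pairs that begins GG and a loop of 4 bases that begins TT. These sequences are shown because the members are grouped further on by where their gene model ends relative to them. The capitals mark the loop, and bases are written as in the GRCm38 transcripts.
Hist1h2ag, Hist1h2bj, Hist1h1c, Hist1h2ac, Hist1h2ae and Hist3h2a: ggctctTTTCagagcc
Hist1h3c: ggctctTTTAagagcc
Hist1h4d and Hist4h4: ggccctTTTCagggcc
Hist1h4i: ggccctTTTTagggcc
The genes of H1, H2A, H2B and H3 shown here have the stem ggctct, and the 3 H4 genes have ggccct. In 22 of the 67 members the annotated transcript ended within 100 bases after the stem-loop. Another 22 ran further, and 23 had no such sequence in the model, which can mean that the model stops short of it or splices it out. The model of Hist1h2ag ended 23 bases after its stem-loop, that of Hist1h2bj also 23 and that of Hist1h3c 74. Hist1h1c ran on for 840 bases, Hist3h2a for 1643, Hist1h2ac for 2010 and Hist4h4 for 2445. The models of Hist1h2bc and Hist1h1a held no stem-loop of this form.

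Few reads fell on these genes. All 67 together took 0.00189% to 0.00378% of the reads of a library. Their summed normalized count was 1137 ± 98.7 in E13.5 cells and 1071 ± 257 in those of E16.5, then 708.6 ± 22.6 on the day of birth and 1033 ± 108 by P3 (SD, n = 3). The place of P0 in this order depended on the scaling. In RPM, which scales every library to the same total, the sums were 21.2 ± 2.02, 28.5 ± 8.06, 29.7 ± 2.00 and 24.1 ± 2.13 (SD, n = 3), so that P0 lay above E13.5. Size factors averaged 1.94 at P0 against 0.939 at E13.5, and every comparison with P0 rests on them.

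Of the 67 members, 24 were listed at 0 in all 12 libraries, 19 had reads but stayed under the filter, and 24 passed it by having 10 or more normalized counts in 3 or more libraries. The 19 held 7 to 85 reads over all 12 libraries, with a median of 24. The genes at 0 lay mostly in unbroken runs, as the plot of mean level by position shows. One run, chr13:21753435-21837530 in GRCm38, held 17 annotated genes of which 12 were protein-coding, all of them members from Hist1h2ak to Hist1h2br and including the linker histone gene Hist1h1b. The other, chr3:96196588-96279001, held 22 annotated genes and all 10 members of the Hist2 locus, Hist2h2be among them. Its remaining protein-coding gene, Bola1, was at 0 as well, while Sv2a next to it averaged 199.9 normalized counts and Sf3b4 averaged 13812. Hist1h2af and Hist1h1e were at 0 outside these runs. Rrm2, a ribonucleotide reductase subunit that dividing cells use, was also listed at 0 in every library. For these 24 members only the listing at 0 is reported, and its cause was not tested.

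**Figure D1:**
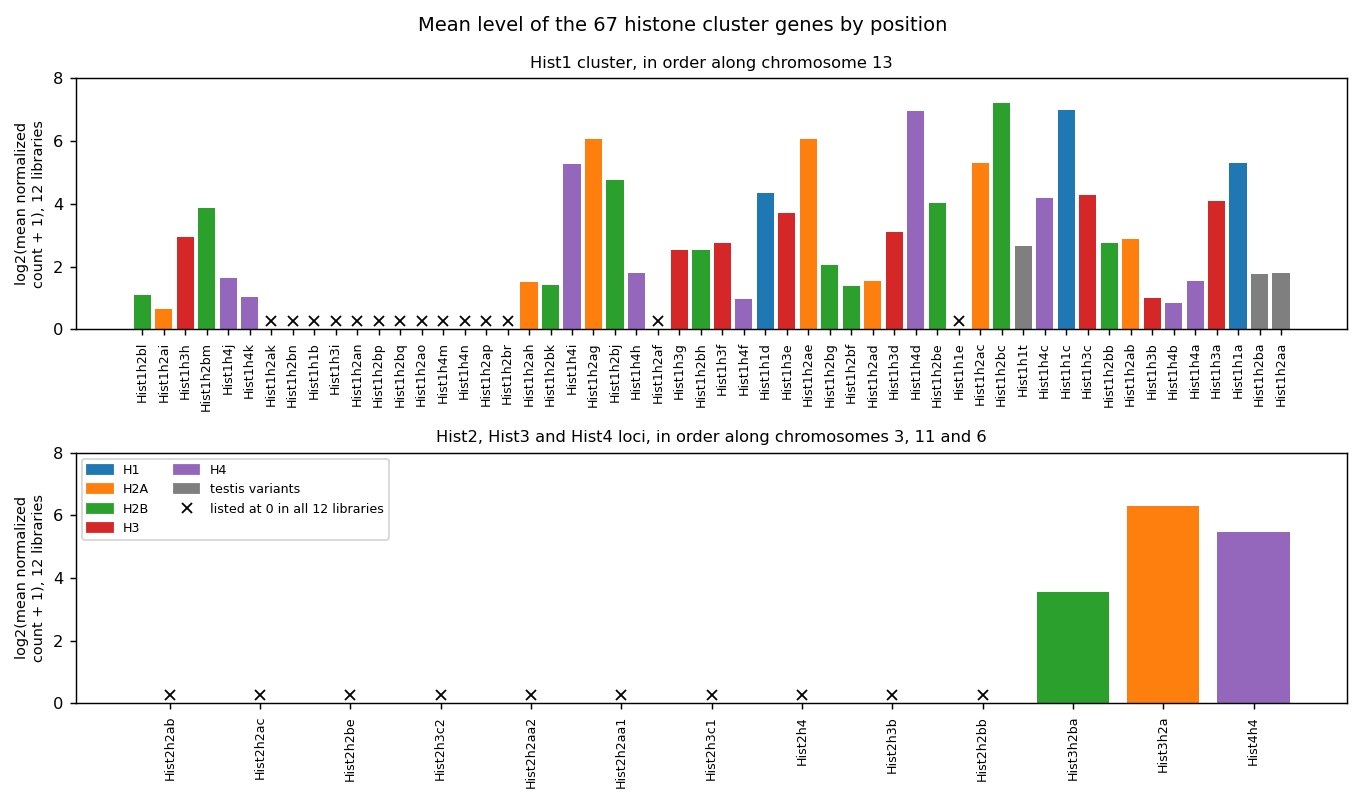
Mean normalized count over 12 libraries, as log2(mean + 1), for the 67 histone genes in chromosomal order, coloured by class, with crosses for the 24 genes listed at 0. The zeros form a run of 12 neighbours in the Hist1 cluster and take in all 10 genes of the Hist2 locus.

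Sequence likeness limits what a single gene's value can say. In 34 of the 67 members over 50% of the 50-base words in their transcripts also occurred in transcripts of another gene. Among the genes described below, this share was 78.9% in Hist1h2ag, 59.4% in Hist1h2bj, 58.0% in Hist1h2ab, 73.4% in Hist1h3e and 93.9% in Hist1h3h, and their values are uncertain to that degree. It was 0% in Hist1h1a, 8.54% in Hist1h1c, 10.2% in Hist1h4d, 8.52% in Hist4h4 and 30.6% in Hist1h2bc.

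On the scale of normalized counts per kb of exon, averaged over the stages, Hist1h2ag led the members at 134.8, followed by Hist1h2bc at 129.2, Hist1h4d at 107.8, Hist1h2ae at 93.7 and Hist1h1c at 81.3. Replacement histone genes make polyadenylated messages outside S phase, and on the same scale 10 of 17 lay above Hist1h2ag, from H2afj at 306.4 to H3f3b at 33070. The other 7 lay below it, among them H1fx at 130.8 and H1foo at 25.4. H2afx, also of the 7, was listed at 0 at every stage, and the cause of that was not tested. No difference between neighbours in this order was tested.

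Linker histones bind the DNA that enters and leaves the nucleosome. Of the 5 H1 genes, 3 passed the filter, while Hist1h1b and Hist1h1e were at 0. Hist1h1a, at chr13:23763666-23764406 on the plus strand, had 45.4, 47.9 and 37.9 normalized counts at E13.5, then 0.954, 1.86 and 7.91 at E16.5, 11.5, 6.52 and 5.31 at P0, and 114, 103 and 80.0 at P3. Every E13.5 and P3 library lay above every E16.5 and P0 library. Its log2 fold change was -3.60 ± 0.49 (SE) at E16.5 against E13.5, with limma adjusted p = 3.81e-06. It was 3.56 ± 0.49 at P3 against P0, with limma adjusted p = 5.11e-06.

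Hist1h1c, at chr13:23738808-23740367 on the plus strand, took a different course. It had 85.5, 88.1 and 113 normalized counts at E13.5, 137, 179 and 192 at E16.5, 91.4, 129 and 107 at P0, and 143, 145 and 110.3 at P3. Its E16.5 libraries lay above all those of E13.5, while its P0 and P3 values overlapped. It rose at E16.5 against E13.5 by 0.82 ± 0.21 on the log2 scale, with limma adjusted p = 0.00214. Its difference at P0 against E16.5 was -0.63 ± 0.21 with limma adjusted p = 0.0172, and 0.026 with limma adjusted p = 0.922 when libraries were scaled to equal totals. That call was also lost without E16.5 library 3 or 4 or P0 library 1. The gene gave 55.9% of the H1 sum at E13.5 and 87.3% at E16.5. Hist1h1d, whose model runs 4884 bases past its stem-loop, fell by 2.35 ± 0.76 on the log2 scale at P3 against E13.5, with limma adjusted p = 0.0115. Its P3 values of 14.5, 15.7 and 0 normalized counts spread widely.

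H2A pairs with H2B in the nucleosome, and 5 of 17 H2A genes passed the filter. Hist1h2ag, at chr13:22042460-22042944 on the minus strand, had 106, 160.0 and 191 normalized counts at E13.5, 1.91, 7.44 and 5.54 at E16.5, 9.92, 3.26 and 11.1 at P0, and 118, 94.3 and 75.9 at P3. Libraries of E13.5 and P3 stood clear of all others. It fell at E16.5 by 4.78 ± 0.47 on the log2 scale, the largest fall among the 24 members tested, with limma adjusted p = 6.87e-08. It rose again at P3 against P0 by 3.53 ± 0.47, with limma adjusted p = 3.25e-06.

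Hist1h2ae, at chr13:23570517-23571220 on the minus strand, had 135.1, 171 and 170.4 normalized counts at E13.5, 8.59, 11.2 and 19.8 at E16.5, 14.6, 13.04 and 26.5 at P0, and 73.6, 61.9 and 86.0 at P3. It fell by 3.56 ± 0.35 at E16.5 and rose by 2.03 ± 0.35 at P3 against P0, on the log2 scale. Its P3 libraries stayed below all E13.5 libraries, with a log2 fold change of -1.10 ± 0.35 and limma adjusted p = 0.0104. At equal library totals that last difference was -0.77 with limma adjusted p = 0.0716. Hist1h2ab, a low member at 9.50 to 14.1 normalized counts at E13.5, fell by 2.40 ± 0.69 at E16.5.

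Hist3h2a stands apart from the main cluster, at chr11:58954685-58956830 on the plus strand. It had 20.1, 23.9 and 31.5 normalized counts at E13.5, 89.7, 89.3 and 93.4 at E16.5, 186, 173 and 171 at P0, and 14.5, 12.8 and 19.2 at P3. No stage overlapped another, and E13.5 and P3 lay closest, at 20.1 and 19.2. Its log2 fold change was 1.83 ± 0.27 at E16.5 against E13.5, with limma adjusted p = 8.38e-06, and 0.95 ± 0.27 at P0 against E16.5, with limma adjusted p = 0.00556. It then fell by 3.45 ± 0.27 at P3 against P0, with limma adjusted p = 4.53e-09. Hist3h2a gave 69.0% of the H2A sum at P0.

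The exons of Hist3h2a share 33.0% of their bases with other genes on the same strand, among them Trim17, a gene of the tripartite motif family that begins at the same base. Trim17 had 8.44, 5.44 and 4.21 normalized counts at E13.5, 189, 183 and 131 at E16.5, 166, 212 and 199.8 at P0, and 30.0, 12.8 and 17.2 at P3. It was high in the same stages, and reads of the shared stretch cannot be told apart.

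Hist1h2ac, at chr13:23681467-23683948 on the minus strand, was at 25.3, 20.7 and 28.4 normalized counts at E13.5, 51.5, 33.5 and 100.5 at E16.5, 43.3, 48.4 and 60.3 at P0, and 23.3, 23.6 and 2.02 at P3. It fell by 2.07 ± 0.63 on the log2 scale at P3 against P0, with limma adjusted p = 0.00656. Its fall leaned in size on P3 library 4, which held 2 reads and lay far below the other P3 libraries. Its log2 fold change of 1.15 ± 0.63 at E16.5 against E13.5 had limma adjusted p = 0.101, although the E16.5 values lay above all those of E13.5. In edgeR's quasi-likelihood test on the recovered reads it was 1.32 with adjusted p = 0.0129.

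Among the 17 H2B genes, 6 passed the filter and Hist1h2bc held most of the signal at E16.5. Hist1h2bc, at chr13:23684199-23692908 on the plus strand, has an intron in its GENCODE model. It had 98.2, 68.6 and 93.6 normalized counts at E13.5, 336, 354 and 473 at E16.5, 84.1, 71.7 and 77.7 at P0, and 58.1, 30.4 and 46.6 at P3. All E16.5 libraries were far above the rest, and the gene gave 91.2% of the H2B sum there. Its log2 fold change was 2.15 ± 0.25 at E16.5 against E13.5, with limma adjusted p = 6.05e-07, and -2.29 ± 0.25 at P0 against E16.5, with limma adjusted p = 6.38e-07. It fell further at P3 against P0 by 0.82 ± 0.25, with limma adjusted p = 0.0071. The E16.5 library with the highest value, library 4, was also the one with the highest Leydig marker sum. Without it the rise at E16.5 was 2.00 with limma adjusted p = 1.53e-05.

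Hist1h2bj, at chr13:22043214-22043676 on the plus strand, had 25.3, 31.6 and 24.2 normalized counts at E13.5, 0.954, 0.930 and 3.96 at E16.5, 5.74, 2.17 and 3.86 at P0, and 65.9, 85.4 and 65.8 at P3. Its E16.5 and P0 values overlapped and lay below all others, and P3 lay above E13.5. It fell by 3.39 ± 0.45 at E16.5 and rose by 3.95 ± 0.45 at P3 against P0, on the log2 scale. P3 exceeded E13.5 by a log2 fold change of 1.39 ± 0.45, with limma adjusted p = 0.0118. Hist1h2bm moved alike, from 13.7 to 21.8 normalized counts at E13.5 through at most 3.17 at E16.5 and P0 to 22.3 to 51.4 at P3.

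Hist3h2ba, the neighbour of Hist3h2a, was highest at P0, with 15.7, 18.5 and 26.5 normalized counts. It exceeded E13.5 there by 1.56 ± 0.59 on the log2 scale, with limma adjusted p = 0.0202. Without P0 library 4 the limma adjusted p was 0.0748, and without E13.5 library 4 it was 0.126.

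**Figure D2:**
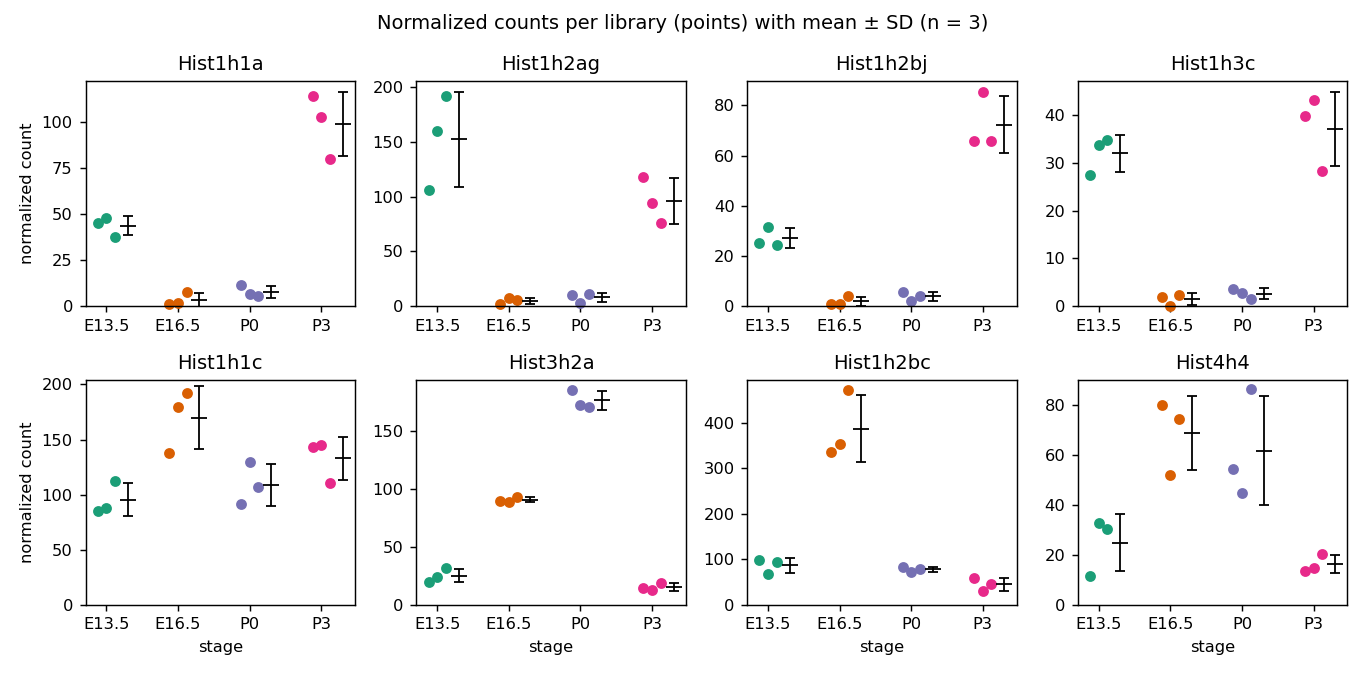
Normalized counts (vertical axis) of 8 histone genes by stage, with 1 point for each of 12 libraries and the mean and SD of 3 libraries beside them. Hist1h1a, Hist1h2ag, Hist1h2bj and Hist1h3c are high at E13.5 and P3, while Hist1h1c, Hist3h2a, Hist1h2bc and Hist4h4 have their highest mean at E16.5 or P0.

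H3 and H4 form the core tetramer of the nucleosome. The 12 H3 genes summed to 113 ± 19.2 normalized counts in E13.5 libraries, to 28.7 ± 7.44 and 28.6 ± 3.11 in those of E16.5 and P0, and to 118 ± 21.4 by P3 (SD, n = 3). No library of E13.5 or P3 overlapped one of E16.5 or P0, on this scale or in RPM. Hist1h3c, at chr13:23744973-23745602 on the minus strand, had 27.4, 33.7 and 34.7 normalized counts at E13.5, 1.91, 0 and 2.37 at E16.5, 3.65, 2.72 and 1.45 at P0, and 39.7, 43.2 and 28.3 at P3. It fell by 3.94 ± 0.49 at E16.5, with limma adjusted p = 1.28e-06, and rose by 3.43 ± 0.49 at P3 against P0, with limma adjusted p = 7.58e-06. No E16.5 library held more than 3 reads of it, so the size of these changes depends on the value of 1 added before taking logs.

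Hist1h3a had 10.6, 9.79 and 17.9 normalized counts at E13.5, at most 4.65 at E16.5, at most 6.52 at P0, and 47.5, 52.0 and 38.5 at P3. Its P3 libraries exceeded all others, by a log2 fold change of 1.81 ± 0.56 over E13.5, with limma adjusted p = 0.00895. Hist1h3h had 4.22, 5.44 and 26.3 normalized counts at E13.5, 0, 0 and 2.37 at E16.5, 0 in every P0 library, and 15.5, 16.7 and 10.1 at P3. P3 was at least 9.11-fold higher than P0, with P0 set at a floor of 3 reads per library. Hist1h3d, Hist1h3e and Hist1h3f, whose models run past the stem-loop, had their highest means at E13.5, between 10.3 and 18.7 normalized counts. Of these, Hist1h3f fell by 1.74 ± 0.69 at P3 against P0, with limma adjusted p = 0.0309, and it was not called when P0 library 3 or 4 or P3 library 1 or 4 was left out.

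Of the 13 H4 genes 4 passed the filter, and Hist1h4d took the largest share of the H4 sum at every stage, from 44.1% to 60.5%. Hist1h4d, at chr13:23581598-23582735 on the plus strand, had 164.7, 174 and 162 normalized counts at E13.5, 103, 85.5 and 187 at E16.5, 58.5, 70.1 and 61.3 at P0, and 118, 138 and 149.8 at P3. Lowest were the P0 libraries, and E16.5 library 4 stood above the other 2 of its stage. It was lower at P0 than at E13.5 by a log2 fold change of -1.39 ± 0.25, with limma adjusted p = 6.11e-05. At equal library totals this was -0.23 with limma adjusted p = 0.415.

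Hist1h4i, at chr13:22040636-22041362 on the minus strand, had 50.7, 79.4 and 58.9 normalized counts at E13.5, 13.4, 13.9 and 22.2 at E16.5, 10.96, 8.15 and 9.17 at P0, and 67.8, 58.9 and 54.7 at P3. It fell by 1.88 ± 0.33 at E16.5 and rose by 2.56 ± 0.33 at P3 against P0, with limma adjusted p = 6.00e-05 and 2.36e-06. Hist1h4c was at 1.06 to 20.6 normalized counts before P3 and at 40.7, 42.2 and 42.5 at P3, above every other library. Hist4h4, at chr6:136801553-136804415 on the minus strand, had 11.6, 32.6 and 30.5 normalized counts at E13.5, 80.2, 52.1 and 74.4 at E16.5, 54.3, 44.6 and 86.4 at P0, and 13.6, 14.7 and 20.2 at P3. It rose by 1.53 ± 0.40 at E16.5, with limma adjusted p = 0.00213, and fell by 1.83 ± 0.40 at P3 against P0, with limma adjusted p = 0.000537.

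The testis variants are linker and core histones made in the testis, chiefly in spermatogonia or spermatocytes. All 3 stayed under the filter and were not tested in the main fit. With no filter, limma called Hist1h1t and Hist1h2aa lower at P3 against P0, at the few reads given next. Hist1h1t had 85 reads in all, of which 26 came from E16.5 library 4. Hist1h2aa had 50 reads, with 14, 13 and 13 in the P0 libraries and at most 4 in any other. Hist1h2ba had 38 reads, spread from 0 to 9 per library.

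**Figure D3:**
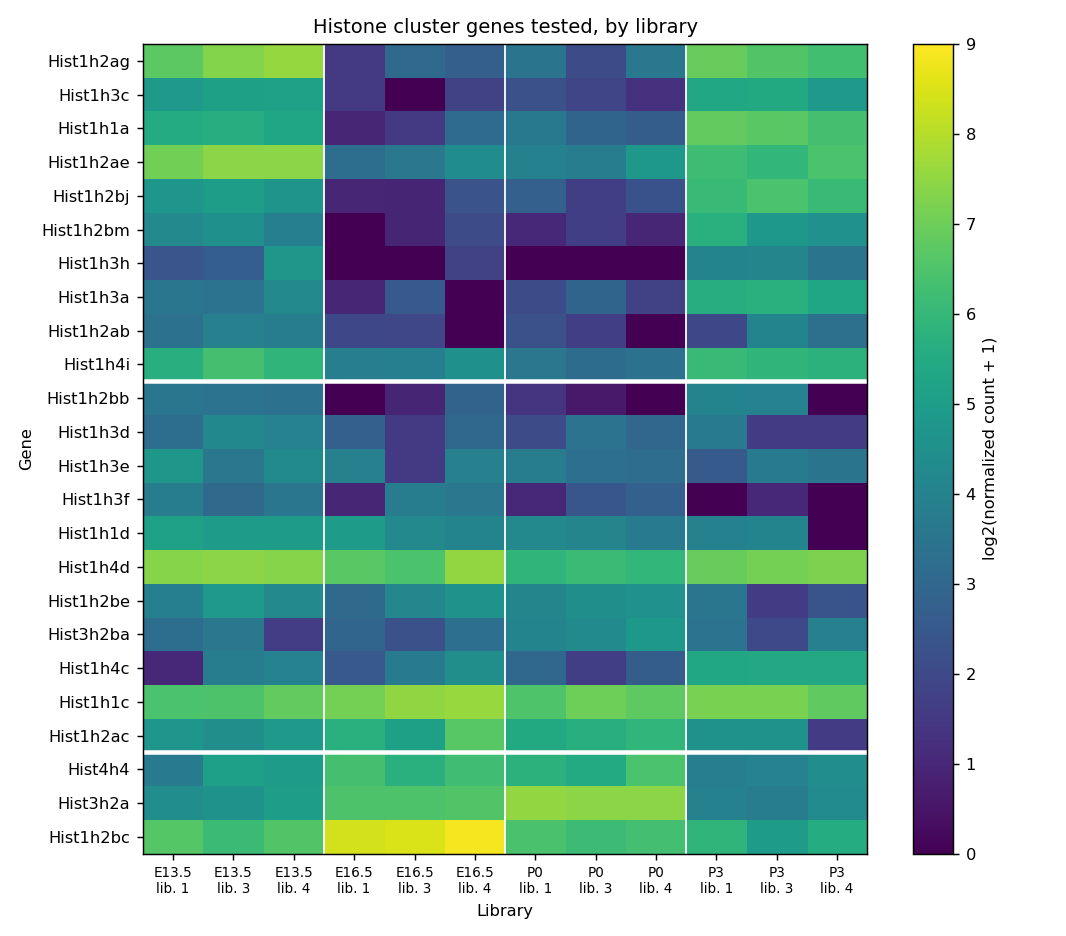
Level of the 24 tested histone genes, as log2(normalized count + 1) in colour, by gene (rows) and library (columns). White lines part the 10 genes that fell at E16.5 and rose at P3 (top), 11 others, and the 3 genes that rose at E16.5 and fell at P3 (bottom).

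The first comparison asks how these genes changed as the cells left the E13.5 stage. At E16.5 against E13.5, 4 of the 24 tested members were higher and 11 were lower at a Benjamini-Hochberg adjusted p under 0.05 in limma. Over all 22384 genes tested, 45.5% were higher and 34.6% were lower, beside 16.7% and 45.8% of the members. The median log2 fold change was -1.24 over the members and 0.31 over all genes. Hist1h1c, Hist4h4, Hist3h2a and Hist1h2bc were the 4 that rose. Falls came from all 5 classes, with Hist1h1a for H1, Hist1h2ag, Hist1h2ae and Hist1h2ab for H2A, Hist1h2bj, Hist1h2bm and Hist1h2bb for H2B, Hist1h3c, Hist1h3h and Hist1h3a for H3, and Hist1h4i for H4. Of the 24, 8 reached 10 normalized counts in libraries of E13.5 or P3 only, so their passing the filter already required a difference, and the counts carry no more weight than the values behind them. The same 8 bear on the counts and medians of the comparisons below.

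At P0 against E16.5, 3 members were higher and 3 lower, 12.5% each, beside 27.6% and 33.4% of all genes. The median log2 fold change was 0.11 over the members and -0.01 over all genes. Hist3h2a, Hist1h1a and Hist3h2ba were higher, and Hist1h2bc, Hist1h4d and Hist1h1c were lower. The calls of Hist1h1a and Hist3h2ba did not hold without P0 library 3, and each was lost without at least 3 other libraries in turn. At equal library totals 9 members were higher and 1 lower, beside 12743 and 3443 of all 23221 genes tested. That scaling moved the median of all genes from -0.01 to 0.68.

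At P3 against P0, 12 members were higher and 6 lower, beside 40.1% and 36.4% of all genes. The median log2 fold change was 1.46 over the members and 0.05 over all genes. For the 8 members that passed the filter through E13.5 or P3 libraries only, the filter bears on the direction. These counts and medians are therefore not read against those of all genes. The 12 comprised 10 of the 11 genes that had fallen at E16.5 (all but Hist1h2bb) together with Hist1h4c and Hist1h4d. Hist3h2a, Hist1h2ac, Hist1h2be, Hist4h4, Hist1h3f and Hist1h2bc were lower. At equal library totals, which moved the median of all genes to -0.86, the counts were 10 higher and 9 lower. Of all 23221 genes tested with that scaling, 4577 were higher and 13565 lower.

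The comparisons within 1 genotype tag gave the following. At P0 against E13.5, both tagged Morc1 (+/-), 3 members were higher and 12 lower, beside 45.7% and 40.5% of all genes. Hist3h2a, Hist4h4 and Hist3h2ba were higher, and the median was -1.39 for the members and 0.20 for all genes. With equal library totals 8 members were higher and 8 lower, beside 15372 and 4550 of all 23221 genes tested. With median-of-ratios factors the counts were 5 and 10, beside 12134 and 7360 of all 22735. At P3 against E16.5, both tagged Morc1 (-/-), 11 members were higher and 6 lower, beside 34.2% and 35.2% of all genes. The median was 0.84 for the members and -0.05 for all genes. In both comparisons the filter bears on the direction of members that passed it through E13.5 or P3 libraries only. Among these, Hist1h2ab, Hist1h2bj, Hist1h2bm, Hist1h3a, Hist1h3c and Hist1h3h were lower at P0 and higher at P3. The counts and medians are therefore not read against those of all genes. Hist1h2bj led the rises there at 4.78 ± 0.45 on the log2 scale, with limma adjusted p = 7.15e-08. Hist1h2bc fell the most, by 3.11 ± 0.25, with limma adjusted p = 9.70e-09. Calls were lost there for Hist1h2ab without E16.5 library 4 or P3 library 4, for Hist1h4c without E16.5 library 1 or P3 library 3 or 4, and for Hist1h2be without E16.5 library 3 or 4 or P3 library 3. At P0 against E13.5 that of Hist1h3a was lost without E13.5 library 4 or P0 library 1 or 4.

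The remaining comparison sets the postnatal cells against the earliest ones. At P3 against E13.5, 4 members were higher and 7 lower, beside 39.2% and 31.2% of all genes. Hist1h1a, Hist1h2bj, Hist1h3a and Hist1h4c were higher at P3, while Hist1h3f, Hist1h1d, Hist1h2be, Hist1h3d, Hist1h2ae, Hist1h2bc and Hist3h2a were lower. At equal library totals the counts were 5 and 3, beside 10871 and 4898 of all 23221 genes tested. The calls of Hist1h1a and Hist3h2a were each lost in 7 of the 12 fits that left out 1 library, and that of Hist1h3d without P3 library 3 or 4. Hist1h4c went from 1.06, 13.1 and 14.7 to 40.7, 42.2 and 42.5 normalized counts, a log2 fold change of 2.48 ± 0.69 with limma adjusted p = 0.00405.

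Considering E16.5 against E13.5 and P3 against P0, which share no libraries, 10 of the 24 members fell in the first and rose in the second, and 3 did the reverse, beside 25.6% and 26.7% of all 22384 genes tested. The 10 were Hist1h1a, Hist1h2ab, Hist1h2ae, Hist1h2ag, Hist1h2bj, Hist1h2bm, Hist1h3a, Hist1h3c, Hist1h3h and Hist1h4i. Of these, 6 (Hist1h2ab, Hist1h2bj, Hist1h2bm, Hist1h3a, Hist1h3c and Hist1h3h) passed the filter through E13.5 or P3 libraries only, so their count is not read against that share. The 3 were Hist1h2bc, Hist3h2a and Hist4h4, none of which passed in that way. Outside E13.5 and P3, Hist1h2ag reached 10 normalized counts only in P0 library 4, at 11.1. Hist1h1a did so only in P0 library 1, at 11.5. With the alternative scalings, with edgeR or DESeq2 on the recovered reads, and with any 1 library left out, both calls held in 9 or 10 of the 10, Hist1h2ab being the exception by losing a call or not reaching the filter. All 3 of the reverse kind kept both calls in these settings. The 5 members with at least 10 normalized counts in every library were Hist3h2a, Hist1h4d, Hist1h2bc, Hist1h1c and Hist4h4, and none of the 10 was among them.

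These groups were then set beside the gene models shown above. Of the 22 members whose model ends at the stem-loop, 7 were tested, and 6 of these 7 reached the filter through E13.5 or P3 libraries only. The filter had thus largely fixed their direction, and their calls are no support for a relation between model and stage. Hist1h2ag differed only by also reaching 11.1 normalized counts in P0 library 4, so the filter bears on its direction too. Its fall at E16.5 and rise at P3 are given above. Hist1h2bb had 15.5, 14.7 and 0 normalized counts at P3 and no call against P0. Its fall at E16.5 had limma adjusted p = 0.0377, was not called by edgeR (adjusted p = 0.0762) or DESeq2 (adjusted p = 0.123), and was lost without E13.5 library 3 or 4 or E16.5 library 1 or 3. Of the 22 whose model runs past the stem-loop 14 were tested, of which 3 rose and 2 fell at E16.5, and 4 rose and 5 fell at P3 against P0. Only Hist1h3d of these 14 reached the filter through E13.5 or P3 libraries alone. Of 23 with no stem-loop in the model 3 were tested, namely Hist1h1a and Hist1h3h, which fell and rose, and Hist1h2bc, which did the reverse. With no filter, all members with reads entered the fit. Of 14 such members whose model ends at the stem-loop, 6 fell and 0 rose in limma at E16.5, and 7 rose and 0 fell at P3 against P0. At an unadjusted p under 0.05 both counts of 0 were still 0. All these falls, and all these rises but those of Hist1h2bk and Hist1h4h, were of genes already tested above, so they add no separate support. Of 18 whose model runs past it, 3 rose and 2 fell at E16.5, and 4 rose and 6 fell at P3 against P0. Over all 41323 genes in that fit, 12300 were higher and 7913 lower at E16.5, and 8997 and 12591 at P3 against P0. In 14 of the 24 tested members the stage of the highest mean differed from that of the summed class. The models also differed in length, with medians of 483.5 bases where they end at the stem-loop and 1255 where they run past it, and the relation between model and stage was not tested.

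**Figure D4:**
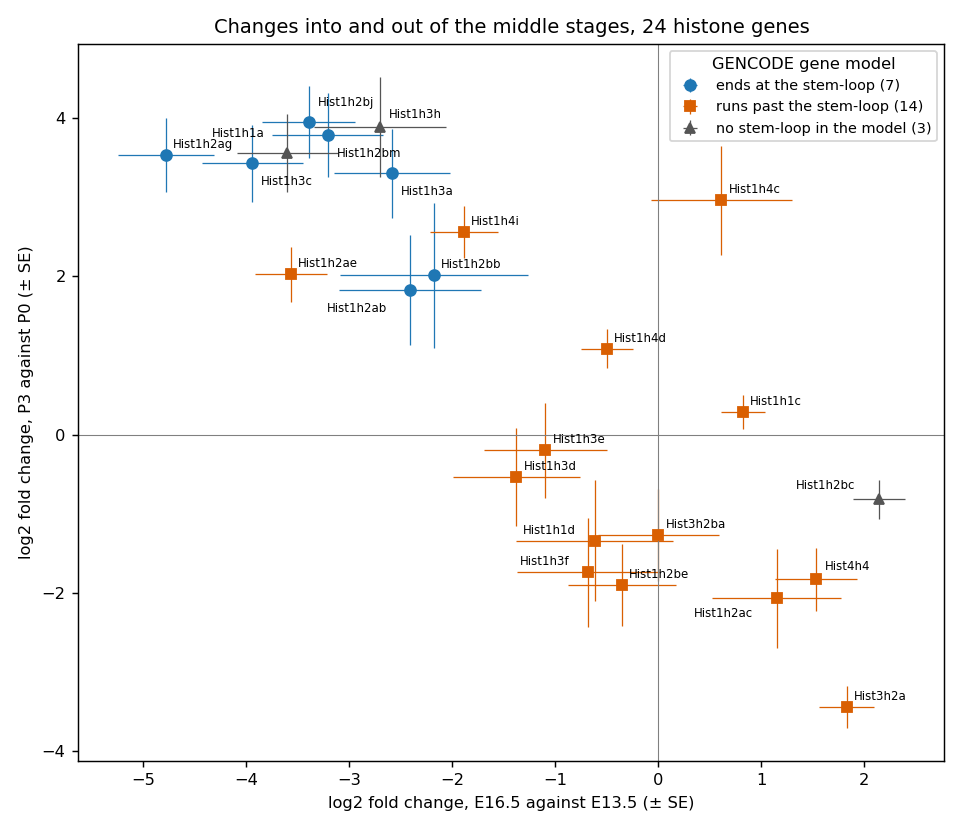
Log2 fold change at P3 against P0 (vertical) over that at E16.5 against E13.5 (horizontal), each with its SE, for 24 histone genes marked by gene model. Hist1h2ag, Hist1h1a, Hist1h2ae and Hist1h4i lie in the upper left and Hist3h2a, Hist1h2bc and Hist4h4 in the lower right. Of the 7 genes whose model ends at the stem-loop, 6 passed the filter through E13.5 or P3 only, which bears on where they lie. Hist1h2ag added to those stages only P0 library 4, and Hist1h1a only P0 library 1, so the filter bears on them too.

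Many H2A and H2B genes lie in pairs that are transcribed away from each other from a shared stretch of DNA. Divergent pairs with at most 1000 bases between the starts numbered 13 among the 67 members, all of H2A with H2B but for Hist1h2bh with Hist1h3f, and both genes were tested in 2 of them. Hist1h2ag and Hist1h2bj, 269 bases apart, fell together at E16.5 and rose together at P3. Hist1h2ac and Hist1h2bc, 250 bases apart, both had their highest mean at E16.5 and fell at P3 against P0. These 2 intervals are printed because the pairs differ in the stages of their highest means, with the promoters of Hist3h2a and Hist1h1a for a high gene of each kind. Each window is 300 bases of RefSeq annotation on GRCm38.p6, from 250 bases before the start to 50 after, and capitals mark matches to the motifs searched.
Hist1h2bj, plus strand, chr13:22042948-22043247: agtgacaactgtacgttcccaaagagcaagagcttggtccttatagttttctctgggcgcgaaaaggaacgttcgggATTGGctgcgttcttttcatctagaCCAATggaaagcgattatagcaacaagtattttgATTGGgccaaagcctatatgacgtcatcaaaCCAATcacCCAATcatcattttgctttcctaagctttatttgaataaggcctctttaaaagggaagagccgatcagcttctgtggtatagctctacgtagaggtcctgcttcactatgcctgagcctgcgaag
Hist1h2ac, minus strand, chr13:23683910-23684209: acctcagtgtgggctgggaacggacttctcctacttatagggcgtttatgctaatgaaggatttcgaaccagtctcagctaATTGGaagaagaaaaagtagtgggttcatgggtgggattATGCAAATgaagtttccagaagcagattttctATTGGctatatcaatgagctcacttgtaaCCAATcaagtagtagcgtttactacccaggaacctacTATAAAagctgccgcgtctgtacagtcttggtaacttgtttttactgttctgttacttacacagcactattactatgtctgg
Hist3h2a, plus strand, chr11:58954435-58954734: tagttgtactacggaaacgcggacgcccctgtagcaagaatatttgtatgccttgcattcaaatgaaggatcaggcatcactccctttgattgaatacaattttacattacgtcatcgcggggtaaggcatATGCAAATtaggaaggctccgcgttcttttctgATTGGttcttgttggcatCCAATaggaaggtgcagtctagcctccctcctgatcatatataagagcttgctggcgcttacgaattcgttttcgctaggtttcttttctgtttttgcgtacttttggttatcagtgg
Hist1h1a, plus strand, chr13:23763418-23763717: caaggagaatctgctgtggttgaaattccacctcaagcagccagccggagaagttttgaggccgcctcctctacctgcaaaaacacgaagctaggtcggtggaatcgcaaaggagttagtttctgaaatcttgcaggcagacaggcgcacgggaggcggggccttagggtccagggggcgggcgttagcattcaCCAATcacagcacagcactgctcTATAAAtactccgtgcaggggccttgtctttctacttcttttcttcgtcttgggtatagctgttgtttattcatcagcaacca
The Hist1h2bj window holds nearly all of the stretch between that gene and Hist1h2ag, and the Hist1h2ac window all of that up to Hist1h2bc. The motifs were searched on both strands and were the octamer ATTTGCAT bound by Oct factors, the CCAAT box, the TATA box written TATAAA, and an E2F-type site written GCGGGAAA. The octamer was in the Hist1h2ac and Hist3h2a windows, where it reads ATGCAAAT on the printed strand, and not in those of Hist1h2bj or Hist1h1a. Among the other tested members, Hist1h2ae, Hist1h2bm, Hist1h2ab and Hist1h2bb, which fell at E16.5, have it, and Hist4h4, Hist1h1c and Hist3h2ba, whose highest mean lay at E16.5 or P0, do not. CCAAT occurred 5 times in the Hist1h2bj window, 3 times in that of Hist1h2ac, 2 times in that of Hist3h2a and 1 time in that of Hist1h1a.

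A match is a description of letters and not a bound site, and a missing match says only that these letters are not in the window. A window was found for 62 of the 67 members. The octamer was in 14 of the 62 (22.6%), beside 1.74% of all 32851 windows. The 14 were 6 of 17 H2A genes, 6 of 15 H2B genes and 2 of 3 testis variants, and no window of an H1, H3 or H4 gene held it. CCAAT was in 53 windows (85.5%, against 37.4% of all), with 3 of 12 H4 windows and every window of the other classes. TATAAA was in 35 (56.5%, against 13.6%) and GCGGGAAA in 1 (1.61%, against 1.07%). Windows of divergent pairs overlap, so the matches are not independent of each other.

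The genes that make and use histone messages were then counted, from lists of known pathway members. Values of these lists in comparisons with P0 rest on the size factors and are given at the main scaling only. Of 16 genes for histone gene expression and 3' end processing, all were tested, 1 rose and 15 fell at E16.5 against E13.5, and 13 rose and 1 fell at P3 against P0. Their median log2 fold changes were -1.14 and 1.34, beside 0.31 and 0.05 over all genes. Of all genes 45.5% rose and 34.6% fell at E16.5, and 40.1% and 36.4% at P3 against P0. Slbp, the stem-loop binding protein gene, had means of 54953 ± 724 normalized counts in E13.5 libraries, 7794 ± 252 and 8994 ± 546 in those of E16.5 and P0, and 42618 ± 2653 by P3 (SD, n = 3). Its log2 fold change was -2.82 ± 0.07 at E16.5, with limma adjusted p = 2.41e-15, and 2.24 ± 0.07 at P3 against P0, with limma adjusted p = 6.83e-14. Ccne1, the cyclin E gene that acts at the entry to S phase, fell by 4.19 ± 0.09 and rose by 2.59 ± 0.09 in the same comparisons. Lsm10, a part of the small ribonucleoprotein that cleaves histone messages, rose by 2.26 ± 0.10 at P3. Cpsf3, the nuclease that makes the cut, fell by 1.64 ± 0.08 at P0 against E16.5. In that comparison 5 of the 16 rose and 7 fell, beside 27.6% and 33.4% of all genes. Sympk, a scaffold of the cleavage complex shared with polyadenylation, was the gene that rose at E16.5, by 0.47 ± 0.10, and fell at P3, by 0.93 ± 0.10.

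Of 13 histone chaperone and deposition genes 1 rose and 11 fell at E16.5, and 11 rose and none fell at P3 against P0, with medians of -1.38 and 1.54. Over all genes 45.5% rose and 34.6% fell at E16.5, and 40.1% and 36.4% at P3 against P0. Chaf1b, a subunit of the CAF-1 complex that loads histones behind the replication fork, fell by 3.15 ± 0.11 and rose by 3.27 ± 0.11. Nasp, a carrier of H3 and H4, fell by 2.42 ± 0.08 and rose by 2.76 ± 0.08. All 14 tested S phase genes fell at E16.5 and all 14 rose at P3 against P0, with medians of -1.97 and 2.79. Cdc6, which loads the replicative helicase, fell by 2.93 ± 0.15 and rose by 4.09 ± 0.15. Mcm5, a subunit of that helicase, fell by 1.88 ± 0.09 at P0 against E16.5 and rose by 3.52 ± 0.09 at P3, more than any S phase gene but Cdc6.

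The replication-independent histone variants, whose deposition is not tied to the copying of DNA, moved in both directions at E16.5. Of 14 tested, 6 rose and 5 fell at E16.5, near the shares of 45.5% and 34.6% over all genes. At P3 against P0, 11 rose and 2 fell, beside 40.1% and 36.4%. The medians were 0.07 and 0.81. Equal library totals moved the median of all genes at P3 against P0 from 0.05 to -0.86. This list is not given at that scaling. Cenpa, the centromeric H3, fell by 2.80 ± 0.09 and rose by 3.56 ± 0.09. H3f3a, which encodes the replacement histone H3.3, rose by 0.88 ± 0.16 at E16.5. H1foo, a germ cell linker histone known from oocytes, had at most 2.18 normalized counts at E13.5 and 112, 103 and 114 at E16.5, and was higher there with limma adjusted p = 2.59e-07. In the plot of changes by gene list the histone cluster genes spread over both directions at E16.5 and at P3, while the S phase genes lie on one side.

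**Figure D5:**
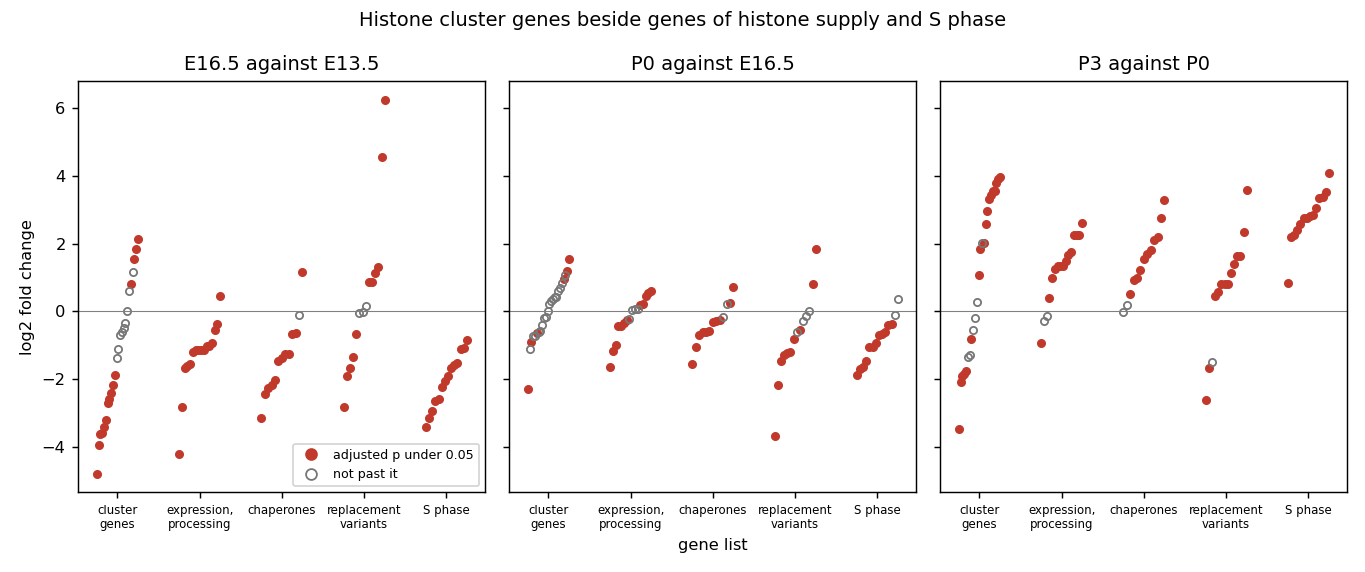
Log2 fold change (vertical) of each tested gene in 5 lists, in 3 successive comparisons, filled where the limma adjusted p is under 0.05. The cluster genes spread from -4.78 to 2.15 at E16.5, while all 14 S phase genes lie below 0 there and above 0 at P3 against P0.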

How the data were processed

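RNA was sequenced from 12 germ cell libraries, 3 at each of 4 stages. The authors trimmed reads with cutadapt 1.18, aligned them to mm10 with HISAT2 2.1.0, counted them per gene with featureCounts 1.5.2 and used DESeq2 1.26.0, per the submitters' processing notes, which name the tools without their order. The deposited values are a normalized signal: read counts divided by a size factor per library, as their whole-read steps show (100% of values came out whole within 0.001 after rescaling). The table's column numbers do not match the replicate numbers of the labels, so columns were assigned to stages only.

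The main test was limma 3.58.1 in R 4.3.3 (linear model over all 4 stages, moderated with a trend) on log2(normalized count + 1), for the 22384 genes at 10 or more normalized counts in 3 or more libraries. P-values were adjusted by Benjamini-Hochberg over all genes of a comparison and called under 0.05. Fold changes are on that scale, which understates the change of low genes. Errors are SE for fold changes. The fit was tested on simulated data. The recovered reads went through edgeR 4.0.16 and DESeq2 1.42.0, beside other scalings, pseudocounts and filters and leaving out each library. Libraries of a stage differed by a chi-square per gene of 5.44 to 19.1, so none was a duplicate of another. Symbols came from GENCODE M21, which matched 55141 of 55487 genes. The rule for named members took the testis variants, all H1 genes, the 3 highest of each other class per kb of exon, the 3 highest and 3 lowest log2 fold changes of each comparison among called members whose higher stage averaged 100 or more, and Hist2h2be, Hist3h2a, Hist3h2ba and Hist4h4. Of the other gene lists it took those with the largest changes. Other members, H3f3a and Sympk were named after their values were seen. The members and the gene lists were chosen with earlier results of these data known. Floors cover counting error only.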

Additional observations from a re-analysis of the deposited data

How the results depend on the processing

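Over the named genes, 1158 values kept direction and side of the threshold under the alternatives other than leaving out a library, 40 lost their call, 47 gained one and 3 reversed. Leaving out single libraries kept 1591, with 53 lost and 30 gained. The cause of these changes was not tested. The 3 reversals came with equal library totals: Hist1h1c at P0 against E16.5 (0.026, limma adjusted p = 0.922) and at P3 against P0 (-0.55, limma adjusted p = 0.0322), and Hist1h2bc at P0 against E13.5 (1.01, limma adjusted p = 0.00134). That scaling also gave 9 higher and 1 lower member at P0 against E16.5, 3 lower at P3 against E13.5 and 8 higher at P0 against E13.5. Median-of-ratios factors gave 5 higher at P0 against E13.5. A pseudocount of 0.1 gave 1 higher at P0 against E16.5 and 2 higher at P3 against E13.5. Calling only changes past 1 on the log2 scale left 1 lower at P0 against E16.5. Fitting 2 stages alone tested fewer members and left 7 lower at E16.5 against E13.5. A mean of at least 100 tested only 3 members: 2 higher and 0 lower at E16.5 against E13.5, 0 higher at P0 against E16.5, 1 higher and 1 lower at P3 against P0, and 0 higher and 1 lower in each of the other 3 comparisons. With 1 library left out, E16.5 against E13.5 gave 4 to 5 members higher and 9 to 13 lower, and P0 against E16.5 gave 1 to 4 and 2 to 4. P3 against P0 gave 11 to 13 and 5 to 7, P3 against E13.5 3 to 5 and 5 to 8, P0 against E13.5 2 to 4 and 10 to 13, and P3 against E16.5 9 to 11 and 5 to 7. A low value of 1 higher at P0 against E16.5 came without E16.5 library 1 and without P0 library 3. No paired analysis was possible because the numbers in the column headers are not those of the labelled replicates. Depth limits the 19 members under the filter, which held at most 85 reads each.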
